A study of Arabidopsis thaliana with 6 samples.

Results

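The custom Agilent array used here carried probes for 188 annotated loci of Arabidopsis thaliana chromosomes 1 and 2, 107 on chromosome 1 and 81 on chromosome 2. They are the loci whose probe name begins with AT1G or AT2G, after 17 named loci of the 205 with such names were left out, and they hold 674 of the 15013 probes and 188 of the 5080 names on each array. Each locus was given 1 value per array, the mean over its probes. Of the 188 loci, 187 had an entry among the RefSeq genes (TAIR10.1), which class 93 as lncRNA, 55 as ncRNA, 36 as protein-coding, 1 as antisense RNA, 1 as a miRNA gene and 1 as a pseudogene. AT1G77215 had none. Most of the loci are therefore annotated as noncoding, as their working name says, and the coding ones include light-signalling, abscisic acid and embryo genes.

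RNA came from inflorescences of Col-0 plants aged 4 weeks, a mixture of open flowers, buds and very young siliques. Wild type and an rdr2 mutant, named rdr2-1 in the protocols, had 3 samples each, which the series describes as biological replicates. The labels name no treatment and no mutation in another gene. The genotype label, however, gives each mutant sample its own rdr2 allele number. The titles, which put the mutant samples in 1 group, were followed. Total RNA (0.5 µg per array) was labelled with Cy3 and read in 1 colour.

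RDR2 is an RNA-dependent RNA polymerase that copies transcripts of RNA polymerase IV into double-stranded RNA. DICER-LIKE enzymes cut that RNA into small interfering RNAs, which guide DNA methylation and silencing, mainly at transposons and other repeats and at genes beside them. Long noncoding RNAs in plants lie between genes or overlap them on either strand, and for most of those measured here no function is known. The series title asks which long intergenic noncoding RNAs depend on RDR2, and the annotated loci answer the same question for transcripts that already had a locus name.

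Signals are given as scaled signal, the background-subtracted spot intensity divided by the array's 75th percentile over the 2369 probes detected on all 6 arrays and multiplied by 100, averaged over the probes of a locus as a geometric mean. Levels were not compared between loci, because probes differ in how well they bind. A log2 fold change is rdr2 minus wild type, and a locus was called where limma's Benjamini-Hochberg adjusted p over all 1790 tested names was under 0.05. A name was tested where at least 1 of its probes was detected (well above background) on the 3 arrays of either genotype.

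Signal from RDR2 itself (AT4G11130), the gene that the labels name as mutant, was 312, 319 and 338 in wild type and 52.4, 48.2 and 50.1 in rdr2. It was 6.43-fold lower in rdr2 (log2 fold change -2.68, SE 0.132, limma adjusted p = 0.000167). The 2 rdr2 arrays that shared a slide stood apart in brightness: 17.56% and 17.76% of all probes were well above background on them, against 24.14% to 37.87% on the other 4 arrays. The first 2 wild-type arrays shared another slide, and replicate 3 of each genotype was alone on its slide, so no slide held both genotypes. Of 23 cell type markers listed for flowers, tapetum, pollen, leaf, root and seed, 3 were on the array, all of them regulators of seed maturation, so the floral identity of the tissue could not be checked. FUS3 was lower in rdr2 (log2 fold change -1.69, limma adjusted p = 0.00523), while LEC1 (-0.06) and ABI3 (-0.03) were not called. The part of young seed in the results below was not tested, and fewer cells of a type and less RNA per cell cannot be told apart in such samples.

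The annotated loci were mostly well detected. Between 88.6% and 90.5% of their probes were well above background on the wild-type arrays and between 83.5% and 88.0% on the rdr2 arrays. Of the 188 loci, 170 passed the test's filter, and 131 had every probe well above background on all 6 arrays. The other 18 were not tested, 4 of them with no spot above background in either genotype and 12 with none in rdr2. Among these 18 are a pair of coding genes with known roles, NAC1 (AT1G56010), a transcription factor of auxin signalling in roots that miR164 targets, and GEA6 (AT2G40170), a late embryogenesis abundant protein of dry seeds. Signal of GEA6 was below 1 on all 6 arrays.

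Of the 170 tested loci, 7 differed between the genotypes, all of them noncoding. Higher in rdr2 were 4 loci (2.35% of those tested, against 2.07% of all tested names), namely AT1G04425, AT2G05995, AT2G47895 and AT1G15405. Lower in rdr2 were 3 loci (1.76%, against 2.12% of all tested names), namely AT1G25098, AT2G15555 and AT2G35637. The share called in either direction, 4.12%, was close to the 4.19% of all tested names, so the number of calls does not set these loci apart. The share of all tested names includes loci that were left out here by name, such as AT2G06002 (log2 fold change -3.93, limma adjusted p = 8.44e-05). The 2 shares are therefore not fully like for like. In all 7 the 3 rdr2 arrays lay wholly on 1 side of the 3 wild-type arrays. For the remaining 163 loci the test did not pass, which does not show that they were equal.

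**Figure D1:**
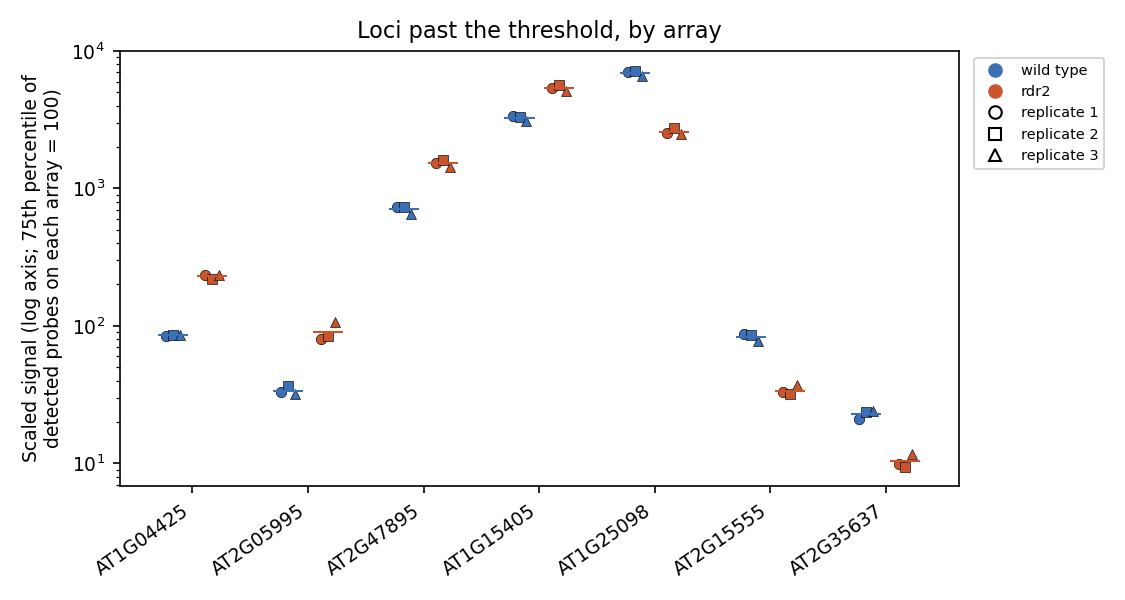
Scaled signal on a log axis of the 7 called loci on each of the 6 arrays, with blue for wild type, orange for rdr2, 1 marker shape per replicate and a bar at the mean of each genotype. In every locus the genotypes are separate, with AT1G04425 rising from a mean of 85.3 to 229 and AT1G25098 falling from 6929 to 2589.

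Of the loci higher in rdr2, AT1G04425 had the largest log2 fold change. This ncRNA locus of chromosome 1 lies between the coding genes AT1G04420 and AT1G04430 and is 3 genes from CRY2, the blue-light receptor cryptochrome 2. Its signal was 83.8, 85.8 and 86.3 in wild type and 234, 220 and 233 in rdr2. The wild-type arrays differed little from each other, and the lowest rdr2 array was far above them. The means were 85.3 ± 1.35 (SD, n = 3) and 229 ± 7.69 (SD, n = 3), a 2.68-fold difference (log2 fold change 1.42, SE 0.129, limma adjusted p = 0.00315). All 3 of its probes were called higher, by 1.22 to 1.67 on the log2 scale.

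AT2G05995, an ncRNA locus of chromosome 2, lies between MOD1, which encodes an enoyl-ACP reductase of fatty acid synthesis, and AT2G06000. Its signal was 32.9, 36.3 and 32.0 in wild type and 80.9, 83.7 and 107 in rdr2. The third rdr2 array was the highest, and the other two were still well above any wild-type array. The means were 33.7 ± 2.25 (SD, n = 3) and 90.5 ± 14.3 (SD, n = 3), 2.67-fold apart (log2 fold change 1.41, SE 0.169, limma adjusted p = 0.00970). All 3 probes were called, between 0.99 and 1.85. The ncRNA locus AT2G06002, which is 2 genes further along and not one of the 188, went the other way, with signals of 13.12, 14.17 and 13.03 in wild type and none of its 9 rdr2 spots well above background (limma adjusted p = 8.44e-05). The 2 loci are thus separated by 1 coding gene in the RefSeq order and were called in opposite directions.

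AT2G47895 is an lncRNA locus of chromosome 2 that shares bases with both of its coding neighbours, AT2G47890 and TLP3 (AT2G47900), a member of the TUBBY-like protein family. It gave signals of 730, 737 and 650 in wild type and 1528, 1605 and 1434 in rdr2, so the groups did not overlap. The rise was 2.16-fold, from 706 ± 48.5 (SD, n = 3) to 1522 ± 85.6 (SD, n = 3). The log2 fold change was 1.11 with an SE of 0.140 (limma adjusted p = 0.0113), and all 3 probes were called.

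AT1G15405, an ncRNA locus of chromosome 1 whose bases are shared with the lncRNA AT1G05163, had the smallest change of the 7. Signals were 3368, 3299 and 3076 in wild type and 5395, 5686 and 5130 in rdr2, and the rise was 1.66-fold (log2 fold change 0.73, SE 0.135, limma adjusted p = 0.0434). Of its 3 probes, 2 were called, at 0.80 and 0.94, and the other stood at 0.47 (limma adjusted p = 0.119 over probes). It was the called locus nearest to the threshold, and leaving out any 1 array other than wild-type replicate 3 ended its call.

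Among the loci lower in rdr2, AT1G25098 had the largest change. It is an lncRNA locus of chromosome 1 with 2 transcript names, and its bases are shared with the coding genes AT1G25097 and AT1G25112. Its signal was 7020, 7214 and 6552 in wild type and 2537, 2747 and 2483 in rdr2. All wild-type arrays were above all rdr2 arrays, with means of 6929 ± 340 and 2589 ± 139 (SD, n = 3 each), 2.68-fold lower (log2 fold change -1.42, SE 0.135, limma adjusted p = 0.00365). Its 6 probes, 3 under each transcript name, were all called, between -1.05 and -1.59. The locus stands in a stretch of chromosome 1 with repeated gene copies, with LpxC3 and LpxC4, which encode near-identical enzymes of lipid A synthesis, 4 and 3 genes away on its 2 sides. Probes of such loci can bind transcripts of a copy, so the signal may belong to more than 1 locus. AT1G24825, a locus outside the 188 with 12 probes, gave signals of 2454, 2562 and 2392 in wild type and 1552, 1545 and 1044 in rdr2 and was not called (log2 fold change -0.86, SE 0.201, limma adjusted p = 0.0781).

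AT2G15555, an ncRNA locus of chromosome 2, lies between the gene of a U6 small nuclear RNA and the coding gene AT2G15560. Signals were 87.5, 85.5 and 77.3 in wild type and 32.9, 31.7 and 36.8 in rdr2. The highest rdr2 array was below 0.5 times the lowest wild-type array. The decrease was 2.47-fold, from 83.4 ± 5.44 (SD, n = 3) to 33.8 ± 2.66 (SD, n = 3). The log2 fold change was -1.30 with an SE of 0.144 (limma adjusted p = 0.00658), and its 3 probes lay between -1.23 and -1.45.

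AT2G35637 is an lncRNA locus of chromosome 2 that shares bases with the coding gene AT2G35640 and has the ubiquitin gene UBQ7 on its other side. Its signals were 21.0, 23.6 and 23.8 in wild type and 9.8, 9.5 and 11.6 in rdr2, so the groups did not overlap. The decrease was 2.22-fold (log2 fold change -1.15, SE 0.155, limma adjusted p = 0.0147), and all 3 probes were called, at -0.92 to -1.46. With normexp background correction the log2 fold change was -0.20, and the cause was not tested.

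**Figure D2:**
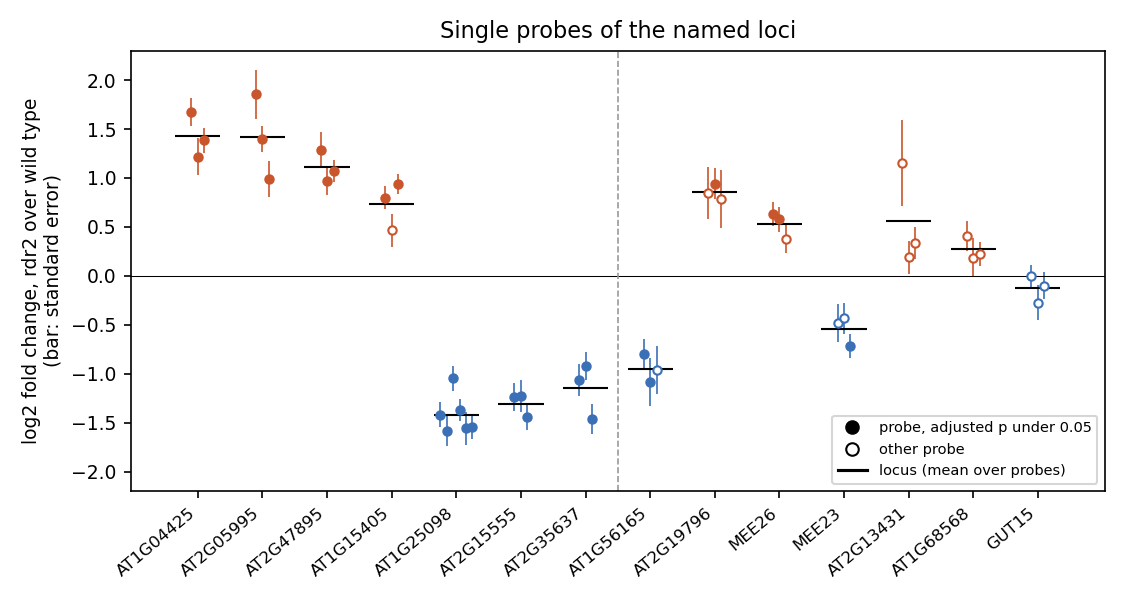
log2 fold change of every tested probe of the 7 called loci (left of the dashed line) and of 7 further named loci, with bars for the standard error, filled points for probes called by limma over all probes and a horizontal line at the locus value. In 6 of the 7 called loci every probe is filled and on 1 side of 0, whereas AT1G15405 has 1 open point at 0.47.

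How firmly the 7 calls stand differed among them. AT1G04425 and AT1G25098 stayed called without any 1 of the 6 arrays. They were also the loci called, 1 in each direction, when arrays of a shared slide were treated as correlated (slide as a random block, consensus correlation 0.815), with limma adjusted p = 0.0379 and 0.0458. Both calls were lost when the arrays of a shared slide were averaged to 1 value, which leaves 2 values per genotype (limma adjusted p = 0.246 and 0.263). The other 5 calls were lost with the random block, and all 7 were lost without the 2 dimmest arrays, rdr2 replicates 1 and 2, when a lone rdr2 array was left and took its spread from the wild type. Under 21 alternative treatments of the data, AT1G04425 was called in 17, AT1G25098 in 16, AT2G05995 in 12, AT2G47895 in 11, AT2G15555 and AT2G35637 in 10 each and AT1G15405 in 8. No called locus changed direction in any of the 21.

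**Figure D3:**
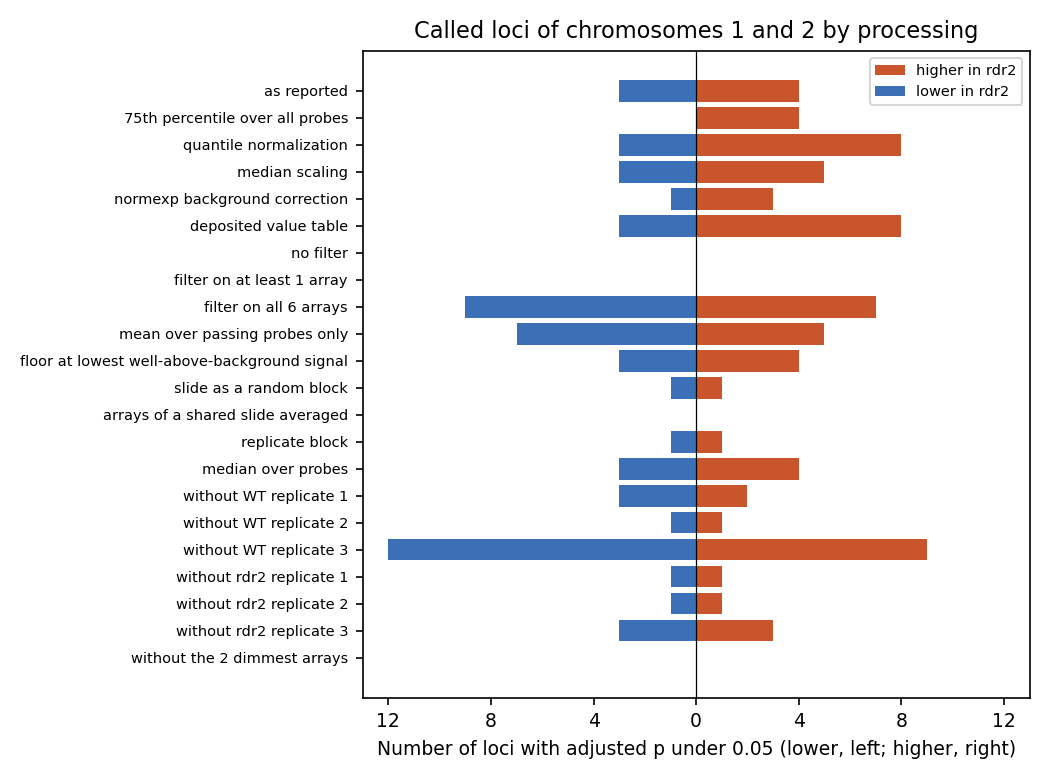
Number of the annotated loci called lower (blue, to the left) and higher (orange, to the right) in rdr2 as reported and under each of the 21 alternatives. The reported 3 and 4 become 12 and 9 without wild-type replicate 3 and 1 and 1 with the slide as a random block. Over all tested names, 38 lower and 37 higher become 397 and 75, and 9 and 14, under the same 2 alternatives.

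Around these calls the spread of differences was narrow. Of the 170 tested loci, 140 (82.4%) lay within 0.5 of 0 on the log2 scale, 3 had a log2 fold change of at least 1 (1.76%, against 2.40% of all tested names) and 4 of at most -1 (2.35%, against 5.08%). The median log2 fold change was -0.10, with the middle 50% from -0.29 to 0.08, and that of all tested names was -0.13, with the middle 50% from -0.45 to 0.17. At an unadjusted limma p under 0.05 there were 40 loci (23.5%, against 18.5% of all tested names), 17 of them higher and 23 lower. The 200 annotated loci of chromosomes 3 to 5 had a median of -0.22, with 7 higher and 10 lower among 187 tested. Of all tested names 2.07% were higher and 2.12% lower. No locus was left out of these 200 by name, and they include RDR2 and FUS3, so their counts are not like for like with those of the 170. All tested names likewise include loci that were left out of the 170 by name.

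**Figure D4:**
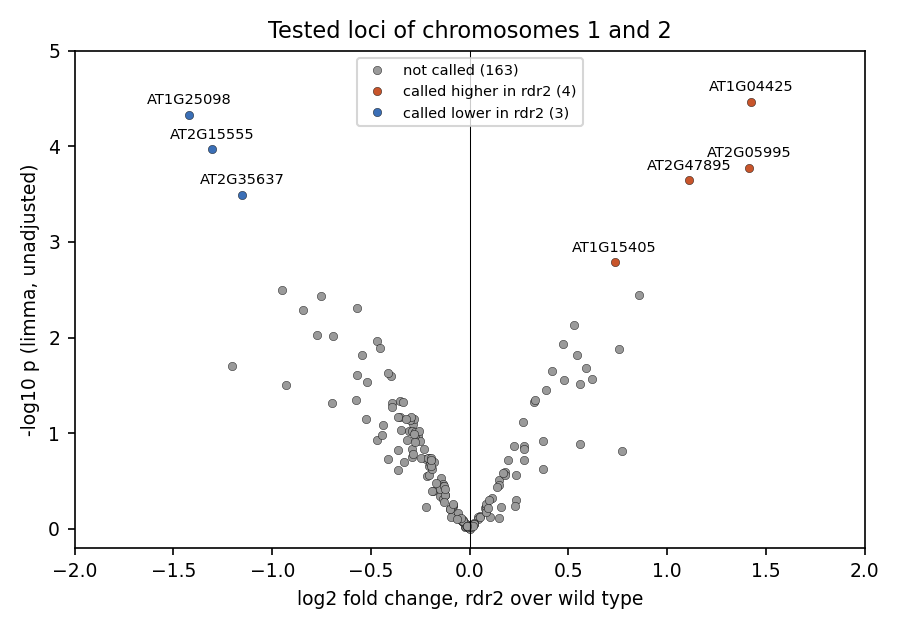
The 170 tested loci by log2 fold change (x axis) and by the negative log10 of limma's unadjusted p (y axis), with the 4 loci called higher in orange and the 3 called lower in blue. The 163 other loci crowd around 0, with 140 of the 170 between -0.5 and 0.5.

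Arrays of the 2 genotypes were separate in many loci that were not called. In 53 loci (31.2%, against 15.7% of all tested names) every rdr2 array lay below every wild-type array, and in 27 (15.9%, against 10.0%) every rdr2 array lay above. Among names with every probe above background on all arrays, these loci and all names were closer. Of the 131 such loci, 33.6% were wholly below and 19.1% wholly above, and among all 438 such names on the array the shares were 37.2% and 17.6%. Whether brightness is the cause was not tested. The surplus of lower loci differed with the scaling. With quantile normalization 33 loci (19.4%, against 15.0% of all tested names) were wholly below and 31 (18.2%, against 14.5%) wholly above. With the 75th percentile taken over all probes, 2 (1.18%, against 2.29%) were wholly below and 16 (9.41%, against 18.2%) wholly above. That scaling added 0.61 to the log2 fold change of every locus alike and moved the median of all tested names to 0.48, so the direction of small differences here is relative to the scaling chosen.

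By class, the calls fell on both kinds of noncoding locus. Of 82 tested lncRNA loci, 1 was higher and 2 were lower, with a median log2 fold change of -0.13. Of 50 tested ncRNA loci, 3 were higher and 1 was lower, with a median of -0.02. None of the 34 tested protein-coding genes was called by limma, where the smallest adjusted p was 0.0897 and the median log2 fold change was -0.19. At an unadjusted limma p under 0.05 there were 6 coding genes. Of all tested names 4.19% were called and 18.5% had an unadjusted p under 0.05, so these counts do not set the coding genes apart. Noncoding loci that share bases with a coding gene on either strand in RefSeq numbered 83 among those tested, with 1 higher, 2 lower and a median of -0.14. The 53 tested noncoding loci with no such overlap had 3 higher, 1 lower and a median of -0.02. AT1G77215, which has no RefSeq entry, is counted among these 53, although its class and overlap are not known. Of all tested names 2.07% were higher and 2.12% lower. With so few calls per group, these counts do not tell the classes or the overlap groups apart. The single antisense RNA locus, AT1G68568, stood at 0.27 (limma adjusted p = 0.436), the pseudogene AT2G13431 at 0.56 (0.208) and MIR167d, the precursor of a miR167 that acts on auxin response factors, at -0.02 (0.979). With the median over probes in place of the mean, AT2G13431 stood at 0.19.

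Just outside the threshold were AT1G56165 and AT2G19796. AT1G56165, an lncRNA locus that shares bases with AT1G56160, gave 7.32, 7.37 and 5.68 in wild type and 2.92, 3.59 and 4.09 in rdr2, groups that did not overlap (log2 fold change -0.95, SE 0.199, limma adjusted p = 0.0625). With normexp background correction its log2 fold change was 0.14. AT2G19796, an ncRNA locus between AT2G19790 and AT2G19800, gave 5.57, 5.98 and 4.18 in wild type and 9.34, 9.92 and 8.91 in rdr2 (log2 fold change 0.86, SE 0.184, limma adjusted p = 0.0654). It was called in 7 of the 21 alternatives, among them quantile normalization.

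GUT15 (AT2G18440), a noncoding RNA known for its rapid turnover, was the 1 of 7 well-known noncoding RNA genes listed, TAS1A, TAS1B, TAS1C, TAS2, APOLO and DRIR being the others, that is among the measured loci. Its signals were 1546, 1554 and 1650 in wild type and 1353, 1357 and 1663 in rdr2. The groups overlapped, since the third rdr2 array was the highest of the 6 (log2 fold change -0.13, SE 0.152, limma adjusted p = 0.706).

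The coding genes among the loci can be read by role. Of 32 genes placed in 5 role lists, 30 were tested and 0 were called by limma at an adjusted p under 0.05, where 4.19% of all tested names were. At an unadjusted limma p under 0.05 there were 4 genes, beside 18.5% of all tested names. Their median log2 fold change was -0.17, beside -0.13 for all tested names, and 21 (70.0%) were below 0, beside 62.2% of all tested names. None of these shares sets these genes apart.

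Light signalling was represented by 7 genes, none of them called, with a median log2 fold change of -0.25. The red and far-red photoreceptor genes PHYA and PHYB stood at -0.25 and -0.36. Signals of PHYB were 379, 381 and 358 in wild type and 316, 315 and 245 in rdr2, groups that did not overlap, and the 95% interval of its difference ran from -0.76 to 0.04 (limma adjusted p = 0.319). The phytochrome-interacting factors, transcription factors that the activated receptors bring to degradation, were at -0.26 for PIF3 and -0.28 for PIF4, both without overlap, and at 0.00 for PIL5, with overlap. COP1, the ubiquitin ligase that represses light responses in the dark, gave 706, 673 and 728 in wild type and 761, 674 and 682 in rdr2, a difference of 0.01 with a 95% interval from -0.33 to 0.34. FHY1, which carries phytochrome A into the nucleus, was at 0.02.

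Of 5 genes of abscisic acid response and late embryogenesis, 4 were tested and none was called, with a median of -0.02. ABI5, the transcription factor of abscisic acid response in seeds, gave 1146, 1130 and 1208 in wild type and 1031, 1006 and 1004 in rdr2. These groups did not overlap, although the difference was small (log2 fold change -0.19, limma adjusted p = 0.485). AFP1, a protein that binds ABI5 and promotes its degradation, was at 0.27 and the dehydrin gene COR47 at -0.22. ABI4, a transcription factor of the same pathway, was near background on every array, from 0.66 to 2.28.

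A run of 8 genes on chromosome 2 carries MEE names (maternal effect embryo arrest) or EDA names (embryo sac development arrest), given for mutant phenotypes of the female gametophyte and the embryo. None was called, and 7 of the 8 were below 0, where 62.2% of all tested names were, with a median of -0.25 beside -0.13. MEE26 (AT2G34870) was the exception and the coding gene with the smallest p. It gave 376, 392 and 394 in wild type and 532, 553 and 592 in rdr2, groups far apart against their spread (log2 fold change 0.53, SE 0.133, limma adjusted p = 0.0897), and 2 of its 3 probes were called higher. Its neighbour EDA3 was at -0.04.

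MEE27 (AT2G34880) encodes the histone demethylase JMJ15. Its signals were 3.85, 4.30 and 2.03 in wild type and 0.97, 1.88 and 1.51 in rdr2. All 9 of its wild-type spots were well above background but only 2 of 9 in rdr2, so the size of its difference is poorly measured (log2 fold change -1.20, SE 0.380, limma adjusted p = 0.161). MEE23 (AT2G34790), of the berberine bridge enzyme family, gave 919, 832 and 936 in wild type and 597, 542 and 708 in rdr2. Those groups did not overlap, and 1 of 3 probes was called lower (log2 fold change -0.55, SE 0.162, limma adjusted p = 0.135). The other 5, MEE22, WRKY35, MEE25, EDA3 and EDA18, lay between -0.32 and -0.04.

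The targets and partners of small RNAs on this list numbered 6, of which 5 were tested and none was called. IAR3, which encodes a hydrolase that frees auxin from its conjugates and is a target of miR167, gave 379, 366 and 396 in wild type and 280, 269 and 308 in rdr2, without overlap (log2 fold change -0.42, SE 0.138, limma adjusted p = 0.179), with 1 of 3 probes called lower. NF-YA5, a target of miR169, was at 0.08 (95% interval -0.28 to 0.44). DRB2, a double-stranded RNA-binding protein of miRNA biogenesis, was at -0.09 (-0.43 to 0.26). NLA, a ubiquitin ligase of phosphate homeostasis that is a target of miR827, stood at -0.33. Of its 3 probes, 2 were detected on all 6 arrays, at -0.37 and 0.59, and the other had no rdr2 spot well above background.

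Of the 6 remaining coding genes with known roles, PRR9, a clock component, was at -0.35 and STRS1, a DEAD-box RNA helicase of stress response, at -0.19. The repressor MYB3 was at -0.15 and the chromatin remodeller PKL at -0.02, while MYB14 was at 0.09 and the auxin efflux carrier PIN3 at 0.18. None was called, and the smallest limma adjusted p among the 6 was 0.370.

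**Figure D5:**
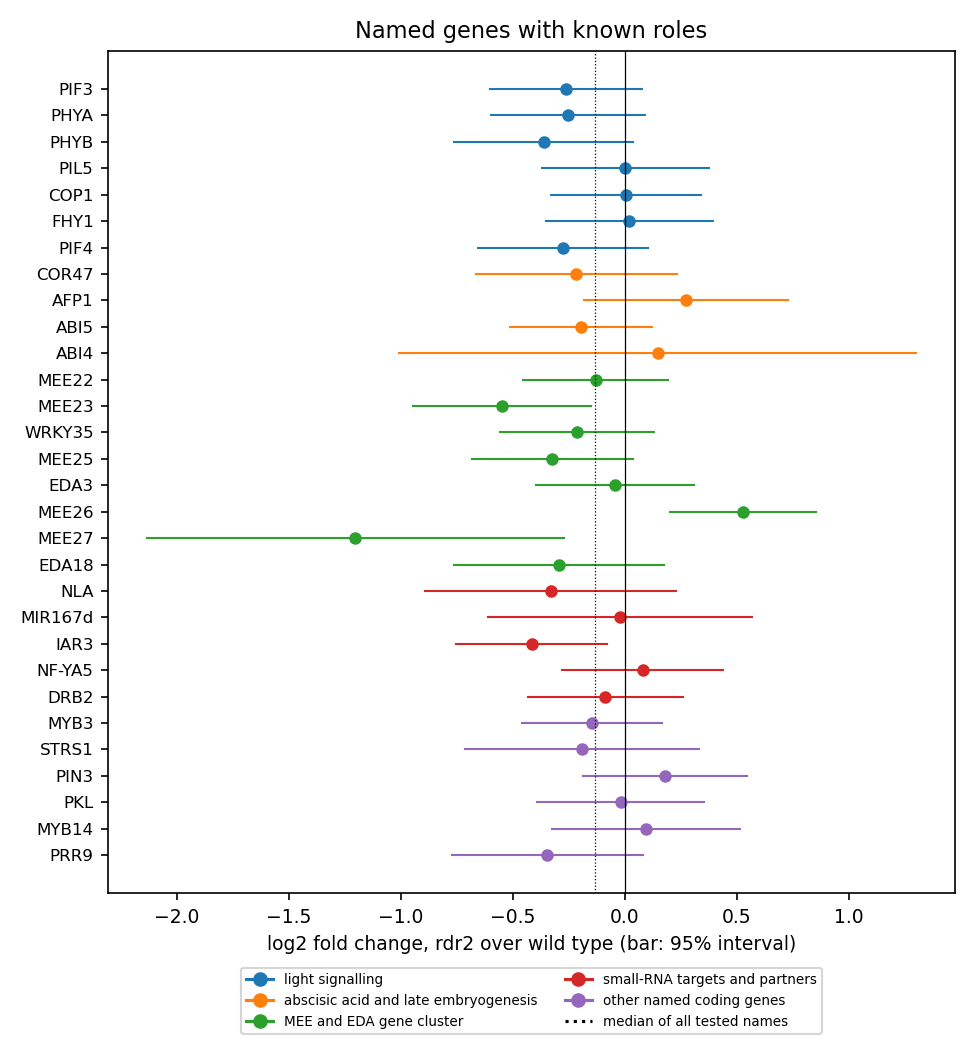
log2 fold change of the 30 tested genes in the 5 role lists, coloured by list, with bars for the 95% interval, a solid line at 0 and a dotted line at the median of all tested names, -0.13. MEE26 stands at 0.53, MEE27 at -1.20 with only 2 of its 9 rdr2 spots well above background, and no gene was called.

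Over 160 loci with at least 2 tested probes, the median distance between the lowest and the highest probe log2 fold change was 0.33, beside locus values whose middle 50% ran from -0.29 to 0.08, and 7 loci had a distance of at least 1. At probe level, 23 of 582 tested probes were higher (3.95%, against 5.11% of all tested probes) and 38 were lower (6.53%, against 8.49%). These fell in 13 and 18 loci, and no locus held probes called both ways. Matching counts of loci over all tested names were not made, so neither these counts nor the next sets the loci apart. In 24 loci at least 1 probe was called but the locus was not. AT1G06265, for example, gave 64.8, 65.5 and 68.3 in wild type and 43.6, 43.6 and 46.8 in rdr2, with 3 of its 6 probes called lower and the locus at -0.57 (SE 0.130, limma adjusted p = 0.0758). AT1G56612 gave 129, 137 and 132 in wild type and 97.9, 93.5 and 99.4 in rdr2, with 4 of 9 probes called lower and the locus at -0.45 (limma adjusted p = 0.126). In the other direction, AT2G41312 gave 115, 124 and 124 in wild type and 172, 161 and 168 in rdr2, with 2 of 6 probes called higher and the locus at 0.47 (limma adjusted p = 0.120). These 3 loci were chosen after their values were seen.

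Where a locus had more than 1 transcript name, the names mostly gave values near each other. Over 31 such loci the median distance between the lowest and the highest name was 0.11 on the log2 scale. It was 0.14 in AT1G25098, with -1.35 for its first name and -1.49 for its second. The largest distance was in AT1G29785, whose first name stood at 0.43 on 3 probes detected on all arrays and whose second stood at -0.35 on 1 tested probe with signals of 1.02 to 3.66. That locus, chosen after its values were seen, therefore has 1 well-measured transcript name and 1 near background. The next largest distances were 0.62 in AT2G35738, 0.60 in AT1G79075, 0.52 in AT2G24755 and 0.49 in AT1G75295.

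In some single probes the arrays did not group by genotype. The second probe of the ncRNA locus AT1G25175 gave 57.8, 90.8 and 315 in wild type and 320, 354 and 31.3 in rdr2, while the third probe gave 5158, 5161 and 4370 in wild type and 4028, 4015 and 3576 in rdr2. In the former, the third array of each genotype, on a slide of its own, lay nearer to the first 2 arrays of the other genotype than to those of its own. The 1 probe of AT1G31258 gave 251, 267 and 272 in wild type and 411, 435 and 165 in rdr2, and the third probe of the lncRNA locus AT2G33815 gave 25.6, 30.0 and 39.7 in wild type and 47.4, 47.7 and 11.6 in rdr2. In AT2G33815 the other 2 probes were called lower, at -0.64 and -0.61, and the locus value of -0.44 was not called (limma adjusted p = 0.345). AT1G25175 and AT1G31258 were the 2 loci where rdr2 replicate 3 lay at least 1 from the mean of replicates 1 and 2 on the log2 scale, and AT2G33815 was chosen after its values were seen. Over all tested loci the median absolute distance of rdr2 replicate 3 from the mean of replicates 1 and 2 was 0.20, and replicates 1 and 2 were 0.08 apart. In wild type the same distances were 0.12 and 0.08.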

How the data were processed

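The arrays measured RNA in 6 samples, 3 per genotype. Per the file headers, the authors read 5 arrays with Feature Extraction 10.5.1.1 and rdr2 replicate 3 with 10.7.3.1. The deposited processed signal is a background-subtracted intensity. The deposited flag column states for each spot whether it was well above background. The deposited value table holds log2 values, used as an alternative. The 536 control spots were left out. The number of arrays limits the precision.

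Processed signals were divided by the array's 75th percentile, put on the log2 scale, averaged per locus and fitted by genotype alone with limma 3.58.1 (lmFit, eBayes; R 4.3.3), with Benjamini-Hochberg adjustment over 1790 names, after testing on simulated data. Normexp correction (offset 50) used the median spot intensity, because no mean spot intensity was at hand. Figures were drawn with matplotlib 3.10.9. No value column was left unmapped.

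The members and lists were chosen with earlier results of these data known. Named were the 12 largest changes in each direction among called loci without overlap, listed noncoding RNAs, the 2 loci of smallest p per class, and the 2 loci nearest the threshold on each side. Role lists were added after the files were read. Gene classes and neighbours come from RefSeq TAIR10.1. The array's header names another build, so no coordinates are given.

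Same-numbered samples of the genotypes deviated with correlations of -0.0192, -0.0129 and 0.0579, so the numbers were not taken to pair samples.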

Additional observations from a re-analysis of the deposited data

How the results depend on the processing

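Against the reported 4 loci higher and 3 lower, counts of higher loci were 8 with quantile normalization, 8 with the deposited value table, 7 with the filter on all 6 arrays, 1 with the slide as a random block, 1 with the replicate block, and 0 with no filter, with the filter on at least 1 array, with arrays of a shared slide averaged and without the 2 dimmest arrays (limma, with 8, 9, 5 and 6 at an unadjusted p under 0.05). Counts of lower loci were 9 with the filter on all 6 arrays, 7 with the mean over passing probes only, 1 with normexp, 1 with the slide as a random block, 1 with the replicate block, and 0 with the percentile taken over all probes, no filter, the filter on at least 1 array, averaged slides and without the 2 dimmest arrays (0, 11, 11, 5 and 8 at an unadjusted p under 0.05). Counts over all tested names moved as well. Higher names, 37 as reported, were 75 with quantile normalization, 71 with the deposited values and 57 with the filter on all 6 arrays. They were 15 with no filter, 14 with the slide block and 9 with averaged slides. Lower names, 38 as reported, were 76 with the filter on all 6 arrays, 99 with passing probes only and 6 with normexp. They were 8 with the percentile over all probes and 9 with the slide block. Leaving out 1 array gave 1 to 9 higher and 1 to 12 lower of the annotated loci. The highest counts came without wild-type replicate 3, where the median of all tested names was -0.30 and 397 of them were called lower, against 38. All other alternatives stayed within 1.5 times. With the percentile over all probes GUT15 stood at 0.49 and MEE23 at 0.065, because that scaling adds 0.61 to every locus alike. GUT15 turned to 0.071 without the 2 dimmest arrays and AT1G56165 to 0.14 with normexp, and the cause was not tested. Member probes called lower went from 38 to 21 with quantile normalization. In all, 19 further loci were called under some alternative only, MEE26 and MEE27 among them. The alternative without the 2 dimmest arrays was chosen after seeing the data. The replicate numbers are shared in name only (wild-type replicate 1 and rdr2 replicate 2 correlated at 0.185). The replicate block keeps AT1G04425 and AT1G25098.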

Other observations

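In 4 loci wild-type replicate 3 lay at least 1 from the mean of wild-type replicates 1 and 2 on the log2 scale, and all 4 had low signals. Of their wild-type spots, 7 of 9 were well above background in AT2G07213 and all 9 in MEE27. AT2G07213 gave 3.74, 4.74 and 1.42 in wild type and 4.17, 5.02 and 5.995 in rdr2, AT1G67238 gave 2.04, 1.91 and 0.89 in wild type and 1.35, 1.79 and 1.42 in rdr2, and the others were ABI4 and MEE27.

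Members of the set that stand within 5 genes of each other in the RefSeq order formed 17 pairs. PIF3 and PHYA, 5 genes apart, stood at -0.26 and -0.25. AT1G69252 and AFP1, next to each other, stood at 0.18 and 0.27. AT1G69572 and AT1G69587, 2 genes apart, stood at -0.30 and -0.35. Other pairs were less alike, such as AT1G11175 and AT1G11185 at -0.21 and -0.78, and AT1G76878 and AT1G76892 at 0.33 and 0.04. The pairs named are examples and do not show whether neighbours change alike. MEE26 and MEE27, next to each other, stood at 0.53 and -1.20, the latter with only 2 of its 9 rdr2 spots well above background. No locus of these pairs was called by limma.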
